A study of Mus musculus with 8 samples.

Results

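The genes described here encode the NF-κB subunits and the inhibitors that hold them in check. They comprised 10 genes chosen by symbol, of 55536 genes in the count tables. The 5 subunit genes were Rel, Rela, Relb, Nfkb1 and Nfkb2, and the 5 inhibitor or feedback genes were Nfkbia, Nfkbib, Nfkbie, Bcl3 and Tnfaip3. Each symbol matched 1 Ensembl gene on mouse build GRCm38, and all 10 were among the 11189 genes tested. With GC7, the mRNA of Rel, Relb and Nfkb2 was higher, that of Nfkb1 was lower and that of Rela did not pass the test. Among the inhibitors, Nfkbie and Tnfaip3 were higher, Nfkbib and Bcl3 were lower and Nfkbia did not pass.

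The study measured mRNA by paired-end sequencing in mouse OT-I CD8+ T cells that were activated and then treated with GC7, a spermidine analogue that inhibits deoxyhypusine synthase (DHPS). DHPS carries out the first step of hypusination, the lysine modification of the translation factor eIF5a. There were 4 Mock and 4 GC7 libraries, described by the study as biological replicates, and the sources used here do not say whether same-numbered libraries came from the same mouse. All 8 came from lymph node cells of C57BL/6 mice that carried the OT-1 T cell receptor transgene on a Rag-1KO background with CD45 congenic alleles, and donors were 5 to 12 weeks old. Every T cell of such mice bears the same receptor, so the cultures model a monoclonal CD8+ T cell response. Cells of both groups were activated for 2 days with 100 nM of the N4 peptide SIINFEKL and were then kept for 2 days in 20 ng/mL recombinant human IL-2. The GC7 cultures received 10 µM GC7 during those last 2 days, and the Mock cultures received an equal volume of the acetic acid vehicle.

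NF-κB is a family of transcription factors that act as pairs of subunits. Rel (c-Rel), Rela (p65) and Relb carry a domain that activates transcription, whereas Nfkb1 and Nfkb2 encode the precursors p105 and p100, which are processed to the DNA-binding subunits p50 and p52 and which also retain other subunits in the cytoplasm. IκB proteins mask the subunits until IκB kinase (IKK) marks them for destruction. In T cells the antigen receptor is among the signals that reach IKK, and several inhibitor genes are themselves NF-κB targets and close a negative feedback loop.

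Because several of these genes are known to be controlled by NF-κB, their promoters were searched for the κB consensus, the DNA motif that NF-κB binds, on both strands. The windows were those of RefSeq on GRCm38.p6 and ran from 250 bases before to 50 bases after an annotated start. A window was listed for 8 of the 10 genes, with 11 windows in all, and none was listed for Relb or Nfkb1. At least 1 match lay in a window of 6 of the 8 genes (75%), compared with 1388 of 27025 genes (5.14%) over all listed windows, 508 of 8331 genes tested (6.1%) and 17 of 52 other NF-κB pathway genes (32.7%). The lines show 1 match for each of the 6 genes with 10 bases on either side, 5′ to 3′ on the gene's strand, with the matching bases in capitals.
Rel, chr11:23771052-23771061, minus strand: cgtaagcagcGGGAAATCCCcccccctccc
Nfkb2, chr19:46304698-46304707, plus strand: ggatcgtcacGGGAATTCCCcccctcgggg
Nfkbia, chr12:55492667-55492676, minus strand: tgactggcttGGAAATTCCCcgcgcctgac
Nfkbie, chr17:45555594-45555603, plus strand: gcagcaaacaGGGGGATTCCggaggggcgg
Bcl3, chr7:19822744-19822753, minus strand: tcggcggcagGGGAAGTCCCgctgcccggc
Tnfaip3, chr10:19015413-19015422, minus strand: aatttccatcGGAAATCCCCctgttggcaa

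Matches are letters in a window and were not tested for binding in these cells. The Rel match began 92 bases before the annotated start, and a second match on the opposite strand overlapped it in all but 1 base. Nfkb2 had 3 windows, the first with an overlapping pair from 39 bases before the start and a further match from 11 bases before it. Both first windows are shown over the 250 bases before the start because these genes are among those whose mRNA was higher with GC7, with matching bases in capitals and overlapping matches drawn as 1 run.
Rel, chr11:23770970-23771219, minus strand: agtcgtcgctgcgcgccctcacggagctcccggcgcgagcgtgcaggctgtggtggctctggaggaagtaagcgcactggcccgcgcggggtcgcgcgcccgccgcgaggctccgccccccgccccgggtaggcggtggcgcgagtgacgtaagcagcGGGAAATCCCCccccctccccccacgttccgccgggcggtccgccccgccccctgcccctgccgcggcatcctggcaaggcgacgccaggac
Nfkb2, chr19:46304487-46304736, plus strand: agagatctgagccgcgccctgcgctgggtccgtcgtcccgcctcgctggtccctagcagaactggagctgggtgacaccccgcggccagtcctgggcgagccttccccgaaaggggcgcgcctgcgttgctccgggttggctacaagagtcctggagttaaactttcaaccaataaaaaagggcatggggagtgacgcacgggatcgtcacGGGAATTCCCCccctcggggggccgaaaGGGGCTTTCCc

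The other 2 Nfkb2 windows shared 1 match, and 1 of them held another. Tnfaip3 had 2 matches in its first window and none in its second, and the Nfkbia match began 29 bases before the start. The Nfkbie match began 106 bases before the start, and the Bcl3 match began 2 bases after it. The windows of Rela and Nfkbib held none. Of the 6 genes with a match, Rel, Nfkb2, Nfkbie and Tnfaip3 were higher with GC7, Bcl3 was lower and Nfkbia did not pass the test. Of the genes whose windows held none, Nfkbib was lower and Rela did not pass. Any relation between matches and direction was not tested.

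**Figure D1:**
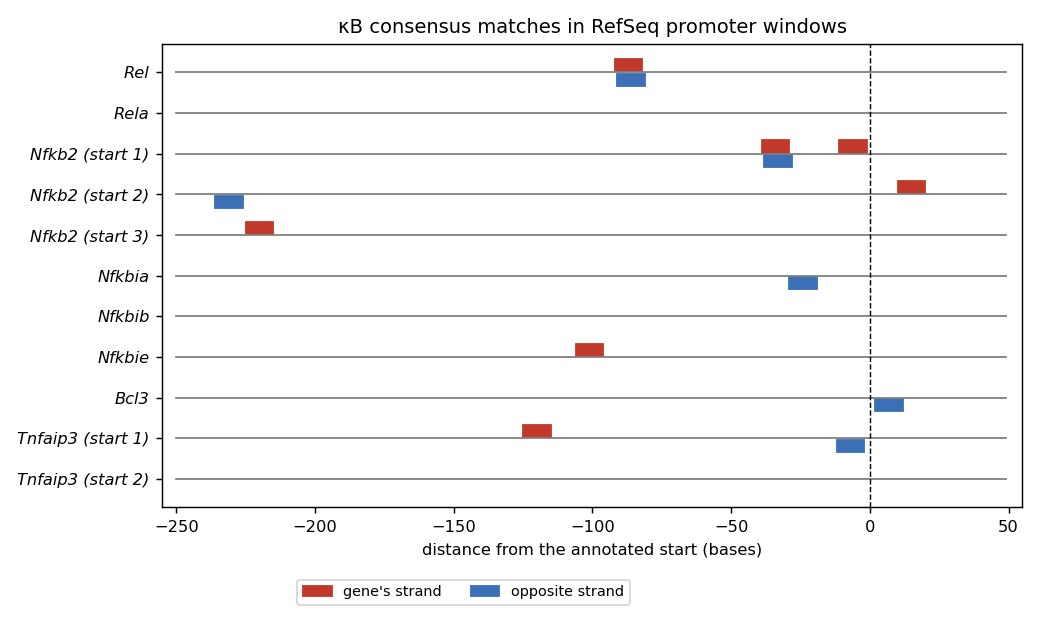
Positions of κB consensus matches in the 11 RefSeq promoter windows of 8 genes. The x axis is the distance from the annotated start in bases, each grey line is 1 window, and boxes above or below it are matches on the gene's or the opposite strand; 6 genes have a box, and Rela and Nfkbib have none.

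Library depth was 17528776 to 25284730 counted reads, and the 10 genes held between 14580 and 21767 of them in each library. The lowest count of any of these genes in a library was 276. Levels are given as CPM, a gene's count relative to the size of its library, with that size adjusted by TMM factors. All 7 T cell markers had lower means in GC7, with sums of 3919 to 4600.01 CPM in Mock and 2839.99 to 3115 CPM in GC7. Among them Lck had a log2 fold change of -0.64 and Cd3e of -0.23, whereas Cd3d at -0.27 did not pass the test. Of the CD8 genes, Cd8a rose from 699 to 972 CPM, whereas Cd8b1, at 344 and 303 CPM, did not pass the test. Mock replicate 2 and GC7 replicate 3 stood apart from their groups over all genes tested, by a chi-square on raw counts scaled to the totals of each pair. Per degree of freedom it was 32.2 to 35.6 in pairs with Mock replicate 2 and 4.52 to 8.76 among the other Mock libraries. In pairs with GC7 replicate 3 it was 14.0 to 22.9, and 2.60 to 6.69 among the other GC7 libraries. The 5 B cell markers summed to 6.98 to 10.1 CPM in Mock and 4.61 to 5.90 CPM in GC7, with Ms4a1 and Pax5 at 0 in every library. The 5 myeloid markers summed to 0.611 CPM or less, the 2 NK cell markers to 0.724 CPM or less and the 4 stromal markers to 0.930 CPM or less. The 5 dendritic cell markers, with Clec9a at 0, summed to 4.82 to 6.60 CPM in Mock and 4.53 to 5.28 CPM in GC7, while Xcr1 fell from 5.11 to 0.628 CPM and Zbtb46 rose from 0.455 to 4.09 CPM. The 2 CD4 T cell markers summed to 0.592 to 0.927 CPM and 1.09 to 1.45 CPM. The 3 MHC class II genes summed to 135 to 181 CPM in Mock and 49.1 to 57.4 CPM in GC7 but did not move together, since H2-Ab1 fell from 146 to 40.4 CPM, Cd74 rose from 2.09 to 12.2 CPM and H2-Aa was at 0.226 CPM or less. Xcr1 passed the expression minimum only through the Mock libraries, and Zbtb46 and Cd74 only through the GC7 libraries. The part of any of these marker genes in the results was not tested. Expression was measured in whole cultures, so fewer cells of a kind and less RNA per cell cannot be told apart.

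Of the 10 genes, 5 were higher and 3 were lower with GC7 at a false discovery rate (FDR) below 0.01 by edgeR's quasi-likelihood test with Benjamini-Hochberg adjustment over all genes tested. Over all 11189 genes, 46.6% changed, 23% upwards and 23.5% downwards. The values of the 2 groups did not overlap for 8 of the 10 genes, against 55.6% of all genes tested. Only Rel changed by more than 2-fold, which 8.48% of all genes did, 3.17% upwards. The median log2 fold change of the 10 genes was 0.29 and their median absolute log2 fold change was 0.57, whereas over all genes tested these were 0.02 and 0.29. Without Mock replicate 2 and GC7 replicate 3 together, 5 were again higher and 3 lower, with Nfkbia called in place of Nfkbie. Without 1 library at a time the count of higher genes was 3 to 5 of the 10, and the count of lower genes was 3 each time.

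**Figure D2:**
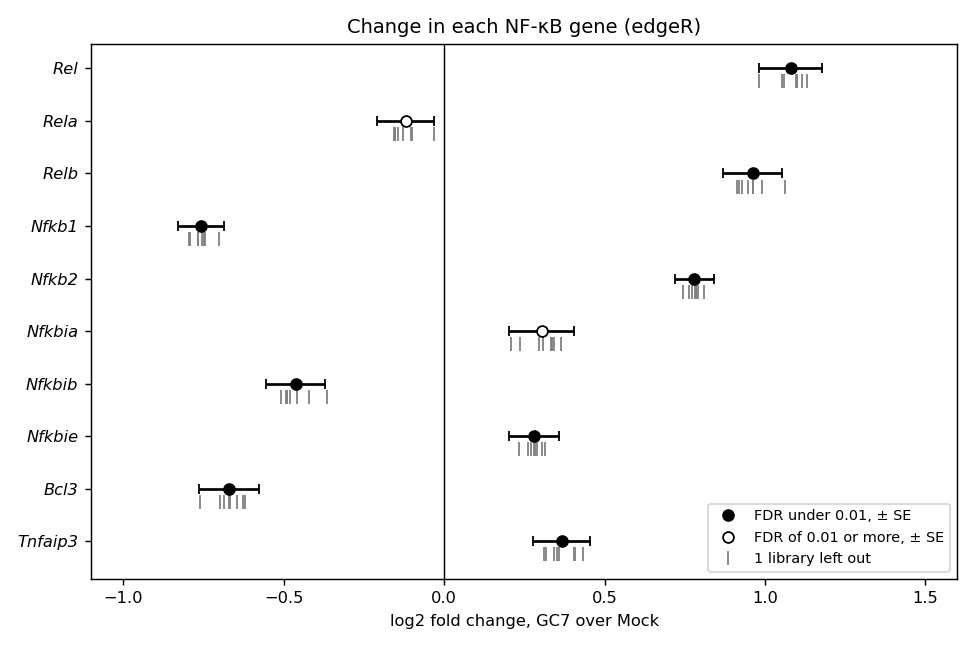
Log2 fold change of each gene with GC7 over Mock, with 4 libraries a group. Bars are standard errors (SE), taken as the absolute log2 fold change over the square root of edgeR's F statistic. Grey ticks are the values without each library in turn. Rel at 1.08 is the highest and Nfkb1 at -0.76 the lowest, and Rela and Nfkbia did not pass an FDR of 0.01.

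Among the activating subunits, Rel (ENSMUSG00000020275, chr11:23736847-23770970, minus strand), the lymphocyte-rich c-Rel, was at 38.8, 29.3, 39.8 and 41.2 CPM in Mock replicates 1 to 4. In GC7 replicates 1 to 4 it was at 82.5, 75.2, 82.3 and 74.9 CPM. The groups were far apart, and the lowest value was that of Mock replicate 2. Its mean rose from 37.2 ± 5.41 to 78.7 ± 4.24 CPM (SD, n = 4 each), a 2.11-fold change with a log2 fold change of 1.08 (SE 0.0979) and an edgeR FDR of 1.69e-06. Of all genes tested, 7.19% had a larger absolute change.

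Relb (ENSMUSG00000002983, chr7:19606217-19629438, minus strand), the partner of p52 in the non-canonical branch of the pathway, was at 21.5, 28.2, 23.0 and 22.1 CPM in Mock. In GC7 it was at 49.9, 43.1, 46.3 and 45.9 CPM. Every GC7 value was above every Mock value, and among the Mock libraries replicate 2 lay highest, opposite to its place for Rel. Relb rose 1.95-fold from 23.7 ± 3.09 to 46.3 ± 2.78 CPM (SD, n = 4 each), with a log2 fold change of 0.96 (SE 0.0911) and an edgeR FDR of 2.51e-06.

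Rela (ENSMUSG00000024927, chr19:5637483-5648130, plus strand) encodes p65, the main activating subunit of the canonical branch. Its levels were 77.8, 80.5, 74.5 and 81.6 CPM in Mock and 76.8, 77.3, 58.1 and 76.9 CPM in GC7. The groups overlapped, and GC7 replicate 3 lay well below the other libraries. The log2 fold change was -0.12 (SE 0.0884) with an edgeR FDR of 0.262, and it was -0.03 without GC7 replicate 3.

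The precursor genes moved in opposite directions. Nfkb1 (ENSMUSG00000028163, chr3:135584655-135691547, minus strand), the source of p105 and p50, was at 511, 484, 487 and 510.1 CPM in Mock and 312, 315, 259 and 291 CPM in GC7. All 4 GC7 values lay below all Mock values. Nfkb1 fell 1.69-fold from 498 ± 14.6 to 294 ± 25.6 CPM (SD, n = 4 each), with a log2 fold change of -0.76 (SE 0.0711) and an edgeR FDR of 2.32e-06.

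Nfkb2 (ENSMUSG00000025225, chr19:46304320-46312385, plus strand), the source of p100 and p52, was at 63.9, 69.4, 69.0 and 73.3 CPM in Mock and 122, 117, 116 and 119 CPM in GC7. The groups did not overlap, and the GC7 values lay close together. Nfkb2 rose 1.72-fold from 68.9 ± 3.82 to 118 ± 2.86 CPM (SD, n = 4 each), with a log2 fold change of 0.78 (SE 0.0593) and an edgeR FDR of 3.76e-07. Its annotation overlaps 299 bases of Psd on the opposite strand, and Psd rose from 12.5 to 18.7 CPM. It also overlaps 531 bases of AC114539.1 on that strand, at 8.51 CPM in Mock and 6.68 CPM in GC7, which did not pass. The strand setting of the counting was not given in the sources used here, so reads from those bases cannot be assigned to either gene with certainty.

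**Figure D3:**
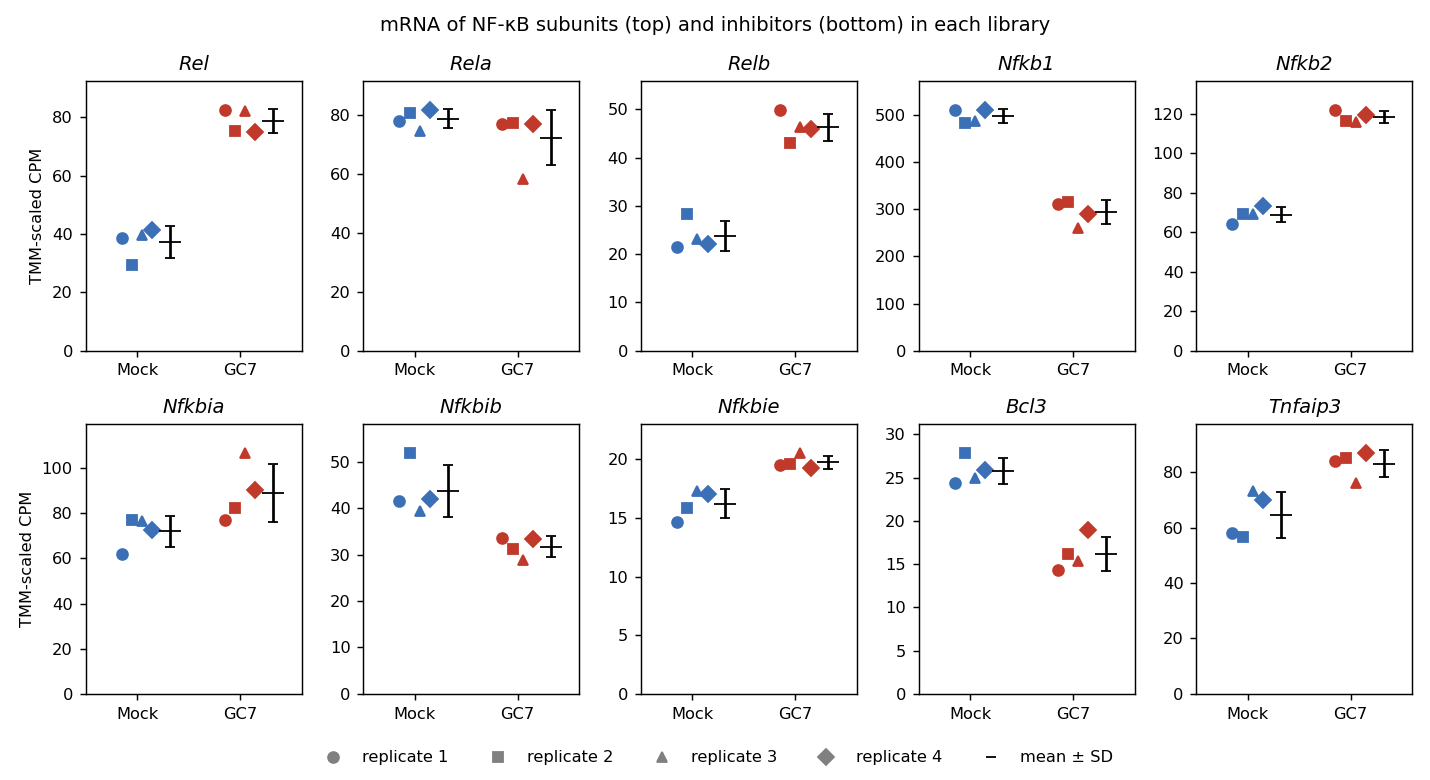
TMM-scaled CPM of each of the 10 genes (y axes, from 0) in the 4 Mock and 4 GC7 libraries, with 1 symbol for each replicate number and bars for mean ± SD. The groups are separate for 8 genes and overlap for Rela and Nfkbia, where GC7 replicate 3 lies at 58.1 and 107 CPM.

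To compare the subunits with each other, CPM was divided by the length of each gene's principal transcript in kb. On this scale the summed mRNA of the 5 subunits was 188 ± 3.98 CPM per kb in Mock and 167 ± 10.1 CPM per kb in GC7 (SD, n = 4 each). With these lengths Nfkb1 was the most abundant in every library, yet its share of the sum was 66.0%, 63.2%, 64.5% and 64.3% in Mock and 43.0%, 44.6%, 41.1% and 42.1% in GC7. The share of Nfkb2 was 10.8% to 12.1% in Mock and 21.6% to 24.0% in GC7. The share of Rela overlapped between the groups, at 15.4% ± 0.431 and 15.9% ± 1.31 (SD, n = 4 each). The order and the direction for Rela depended on the length used: per kb of all annotated exons, Nfkb2 averaged 26.9% and Nfkb1 25.3% in GC7, and Rela averaged 27.5% in Mock and 24.4% in GC7.

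Relb made up 5.17% to 6.88% of subunit mRNA in Mock and 11.4% to 13.7% in GC7. Rel, whose transcript is the longest of the 5, made up 2.11% to 2.90% in Mock and 5.86% to 7.19% in GC7. The ratio of the precursors, Nfkb1 over Nfkb2 per kb, was 5.31 to 6.09 in Mock and 1.71 to 2.06 in GC7. Per kb, Rel over Rela was 0.173 ± 0.0276 in Mock and 0.403 ± 0.0763 in GC7, and Relb over Rela was 0.371 ± 0.0453 and 0.799 ± 0.129 (SD, n = 4 each). These shares and ratios describe the mRNA and were not tested, and protein was not measured in these libraries.

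**Figure D4:**
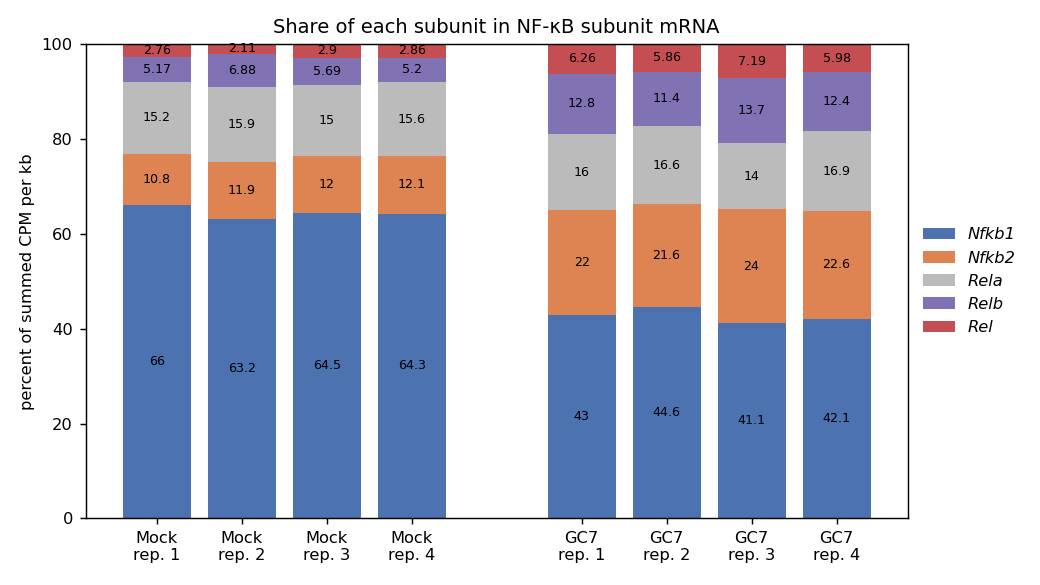
Share of each NF-κB subunit gene in the summed CPM per kb of the 5 subunits (y axis, percent) for each of the 8 libraries (x axis). Nfkb1 takes 63.2% to 66.0% of each Mock bar and 41.1% to 44.6% of each GC7 bar.

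The IκB genes split by direction. Nfkbia (ENSMUSG00000021025, chr12:55489410-55492647, minus strand) encodes IκBα, which is resynthesised after NF-κB activation and carries subunits back out of the nucleus. Its levels were 62.0, 77.2, 76.4 and 72.5 CPM in Mock and 76.8, 82.4, 107 and 90.2 CPM in GC7. The groups overlapped narrowly, with GC7 replicate 1 just below Mock replicate 2. The log2 fold change of Nfkbia was 0.30 (SE 0.102) with an edgeR FDR of 0.0216, and 4 alternatives moved that FDR below 0.01, among them library totals in place of TMM with 0.40 and an FDR of 0.00452.

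Nfkbib (ENSMUSG00000030595, chr7:28758251-28767512, minus strand) encodes IκBβ, a slower acting inhibitor. It was at 41.6, 51.8, 39.4 and 42.1 CPM in Mock and 33.5, 31.2, 28.9 and 33.4 CPM in GC7, with Mock replicate 2 the highest and no overlap between groups. Nfkbib fell 1.38-fold from 43.7 ± 5.54 to 31.7 ± 2.19 CPM (SD, n = 4 each), with a log2 fold change of -0.46 (SE 0.0918) and an edgeR FDR of 9.40e-04. It shares 42 annotated bases with Sirt2, which fell from 84.2 to 64.7 CPM.

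Nfkbie (ENSMUSG00000023947, chr17:45555703-45563169, plus strand) encodes IκBε. It was at 14.7, 15.9, 17.3 and 17.0 CPM in Mock and 19.5, 19.6, 20.5 and 19.3 CPM in GC7. All GC7 values were higher, but the shift was small. Nfkbie rose 1.22-fold, with a log2 fold change of 0.28 (SE 0.0781) and an edgeR FDR of 0.00796. That call rested on the full set of libraries, since without any 1 of them other than Mock replicate 3 the log2 fold change was 0.23 to 0.31 with an edgeR FDR of 0.0101 to 0.0301.

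Bcl3 (ENSMUSG00000053175, chr7:19808462-19822770, minus strand) is an atypical IκB that binds p50 and p52 in the nucleus. It was at 24.4, 27.8, 24.9 and 25.9 CPM in Mock and 14.3, 16.1, 15.3 and 18.9 CPM in GC7, with the groups well separated. Bcl3 fell 1.59-fold from 25.8 ± 1.51 to 16.2 ± 1.96 CPM (SD, n = 4 each), with a log2 fold change of -0.67 (SE 0.0930) and an edgeR FDR of 6.12e-05.

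Tnfaip3 (ENSMUSG00000019850, chr10:19000910-19015657, minus strand) encodes A20, a ubiquitin-editing enzyme that shuts off signalling upstream of IKK. It was at 58.1, 56.7, 73.1 and 70.0 CPM in Mock and 84.2, 85.2, 76.2 and 86.9 CPM in GC7, and the highest Mock value lay close under the lowest GC7 value. Tnfaip3 rose 1.29-fold from 64.5 ± 8.29 to 83.1 ± 4.75 CPM (SD, n = 4 each), with a log2 fold change of 0.37 (SE 0.0881) and an edgeR FDR of 0.00337. Without Mock replicate 1 or GC7 replicates 1, 2 or 4 in turn, its log2 fold change was 0.32, 0.36, 0.35 and 0.34 and its edgeR FDR was 0.0103 to 0.0132.

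Per kb of principal transcript, Nfkb1 and Nfkbia had the highest and second highest means of the 10 genes in both groups. They were at 121 ± 3.54 and 45.6 ± 4.43 CPM per kb in Mock and 71.5 ± 6.23 and 56.4 ± 8.21 CPM per kb in GC7 (SD, n = 4 each). Their GC7 libraries overlapped, at 63.0 to 76.5 CPM per kb for Nfkb1 and 48.7 to 67.6 for Nfkbia. The order depends on the length used. Nfkb1 has 4117 bases in its principal transcript and 12061 in all annotated exons, and Nfkbia has 1578 and 1610. In Mock, Rela, Nfkb2, Nfkbib, Tnfaip3, Bcl3, Relb, Nfkbie and Rel followed, and the libraries of Nfkb2 and Nfkbib and of Tnfaip3 and Bcl3 overlapped. In GC7 the order was Nfkb2, Rela, Relb, Tnfaip3, Nfkbib, Rel, Bcl3 and Nfkbie, with overlap between Rela and Relb, Relb and Tnfaip3, Rel and Bcl3, and Bcl3 and Nfkbie. Rel thus went from the lowest of the 10 at 4.99 ± 0.725 CPM per kb to above Bcl3 on average at 10.5 ± 0.567 CPM per kb (SD, n = 4 each).

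The rest of the pathway was followed in 66 further genes listed by role, of which 61 were tested. With GC7, 23 were higher and 13 were lower (edgeR FDR below 0.01), which is 59% of those tested against 46.6% of all genes. Their median log2 fold change was 0.05. The share that changed was 81% among the textbook NF-κB target genes and 38.5% to 53.8% in the other lists, which lie nearer the 46.6%. Among 13 other IκB proteins and partners of A20, 5 were higher (38.5%, against 23% of all genes tested) and 0 were lower (against 23.5%). The share that changed was thus 38.5%, below the 46.6% of all genes. Their median absolute log2 fold change was 0.09, against 0.29 over all genes tested. Nfkbid, the nuclear inhibitor IκBNS, was at 15.6, 20.4, 17.0 and 18.4 CPM in Mock and 26.5, 26.8, 21.8 and 27.1 CPM in GC7. It rose with a log2 fold change of 0.52 (SE 0.10) and an edgeR FDR of 7.88e-04.

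Tnip3, whose product ABIN-3 binds A20, had the largest change of that list. It was at 2.80, 3.30, 3.11 and 2.39 CPM in Mock and 18.4, 13.0, 24.0 and 16.0 CPM in GC7, with a log2 fold change of 2.61 (SE 0.190) and an edgeR FDR of 2.52e-07. N4bp1 and Rnf11 rose with log2 fold changes of 0.73 and 0.64. Zc3h12a, an RNA-degrading feedback enzyme chosen after its values were seen as the fifth to rise, had 0.31 and lost the call without Mock replicate 1, Mock replicate 4, GC7 replicate 1 or GC7 replicate 4, with log2 fold changes of 0.30, 0.31, 0.28 and 0.31. Tnip1 at -0.15 (edgeR FDR 0.0489), the deubiquitinase gene Cyld at 0.08 (edgeR FDR 0.387) and Nfkbiz at 0.00 (edgeR FDR 0.996) did not pass, and the sign of Nfkbiz and of Cyld turned under other settings.

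The genes of the IKK complex did not move together. Chuk, which encodes the catalytic subunit IKKα, was at 52.7, 42.5, 51.8 and 52.0 CPM in Mock and 79.8, 81.5, 77.9 and 73.9 CPM in GC7, and rose with a log2 fold change of 0.65 (SE 0.0764) and an edgeR FDR of 1.45e-05. Ikbkb, which encodes IKKβ, was at 105 to 119 CPM in Mock and 94.6 to 99.0 CPM in GC7, with a log2 fold change of -0.21 (edgeR FDR 0.00809). The Ikbkb call was lost without any 1 of 6 libraries, Mock replicates 3 and 4 and each GC7 replicate, with log2 fold changes of -0.23 to -0.19, and with library totals it was -0.12 (edgeR FDR 0.115). Ikbkg, the scaffold NEMO, was at 0.05 (edgeR FDR 0.606) with a sign that turned without Mock replicate 2, where it was -0.02, and it overlaps 418 bases of G6pdx, which fell from 60.5 to 38.0 CPM.

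Map3k14, the kinase NIK of the non-canonical branch, had a log2 fold change of 0.09 (edgeR FDR 0.282). Map3k7, the kinase TAK1 upstream of IKK, rose from 93.1 ± 10.6 to 149 ± 9.68 CPM (SD, n = 4 each), a log2 fold change of 0.67. The largest change among these 10 kinases and adaptors was that of Ikbke, an IKK-related kinase, at 52.4, 57.9, 62.4 and 57.3 CPM in Mock and 107, 101, 172 and 125 CPM in GC7, with a log2 fold change of 1.13 (SE 0.140) and an edgeR FDR of 2.41e-05. In all, 3 of the 10 were higher and 2 were lower, a share of 50% against 46.6% of all genes tested. Beside Ikbkb the other lower gene was Tab1 at -0.29, named after its values were seen. The count of lower genes was 0 with library totals and 1 with no filter. Leaving out 1 library at a time, it was 0 without Mock replicate 4, GC7 replicate 1 or GC7 replicate 2, and 1 without Mock replicate 3, GC7 replicate 3 or GC7 replicate 4.

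On the route from the antigen receptor to IKK, Prkcq fell, whereas Malt1 and Bcl10 did not pass the test. Prkcq, which encodes the kinase PKCθ, was at 190.2, 207, 187 and 189 CPM in Mock and 126, 129, 113 and 126 CPM in GC7, with a log2 fold change of -0.65 (SE 0.0630) and an edgeR FDR of 3.13e-06. Its groups were separate. Malt1, which encodes a protease, was at 365 CPM in Mock replicate 2 and at 475 to 506 CPM in the other Mock libraries, against 359 to 399 CPM in GC7. Its log2 fold change of -0.30 (edgeR FDR 0.0152) became -0.39 with an edgeR FDR of 5.63e-05 without Mock replicate 2, and Bcl10 at -0.05 (edgeR FDR 0.523) turned to 0.05 with library totals in place of TMM.

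Of 13 tested TRAF, cIAP and ubiquitin ligase genes, 4 were higher and 3 were lower, or 53.8% changed against 46.6% of all genes tested, and with library totals in place of TMM 1 was lower. Tradd, the adaptor of TNF receptor 1, was at 36.7, 45.4, 35.9 and 38.2 CPM in Mock and 18.1, 20.1, 16.8 and 20.0 CPM in GC7, and fell with a log2 fold change of -1.06 (SE 0.0932) and an edgeR FDR of 1.31e-06. Traf3, which directs the degradation of NIK, rose with 0.62 (SE 0.0816), and its cIAP partners Birc2 and Birc3 rose with 0.34 and 0.29. The Birc2 call was lost without Mock replicate 1 or Mock replicate 4, with log2 fold changes of 0.34 and 0.32. Rbck1 of the linear ubiquitin ligase rose with 0.37. Traf1 at -0.02 and Traf2 at 0.12 did not pass, with edgeR FDRs of 0.828 and 0.153, and the sign of Traf1 turned with library totals and without Mock replicate 2 or GC7 replicate 2.

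Of 25 textbook target genes of NF-κB, 21 were tested, and 11 were higher (52.4%, against 23% of all genes tested) and 6 were lower (28.6%, against 23.5%). Their median log2 fold change was 0.22. Without 1 library at a time the count of higher targets was 9 to 12, with 9 without Mock replicate 1, Mock replicate 3 or GC7 replicate 4. The higher genes include Bcl2a1b and Bcl2a1d, whose transcripts are 99.1% identical over 817 bases. The treatment of multiply mapped reads was not given, so their counts may not be separate measurements. The 3 with the largest absolute changes all rose. Cd83, an activation marker, was at 1.43, 0.550, 0.788 and 0.449 CPM in Mock and 10.9, 9.51, 13.4 and 9.76 CPM in GC7, with a log2 fold change of 3.77 (SE 0.251). It passed the expression minimum only through the GC7 libraries. The chemokine genes Ccl3 and Ccl4 rose from 3.59 ± 0.746 to 18.0 ± 3.10 CPM and from 4.30 ± 0.837 to 19.3 ± 1.59 CPM (SD, n = 4 each).

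The falling targets, named after their values were seen, included Ier3 at 46.4 ± 6.80 to 12.5 ± 1.42 CPM and Tnfrsf4, the costimulatory receptor OX40, at 152 ± 6.76 to 73.9 ± 6.68 CPM (SD, n = 4 each). Their log2 fold changes were -1.89 and -1.04, with edgeR FDRs of 5.19e-08 and 1.70e-07. The count of lower targets was 4 in place of 6 without GC7 replicate 1, 3 or 4 and with library totals. Tnf itself, at 27.5 to 36.9 CPM in Mock and 24.4 to 31.1 CPM in GC7, did not pass, with a log2 fold change of -0.15 (edgeR FDR 0.211). Targets thus moved in both directions, as did the subunit and inhibitor genes.

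**Figure D5:**
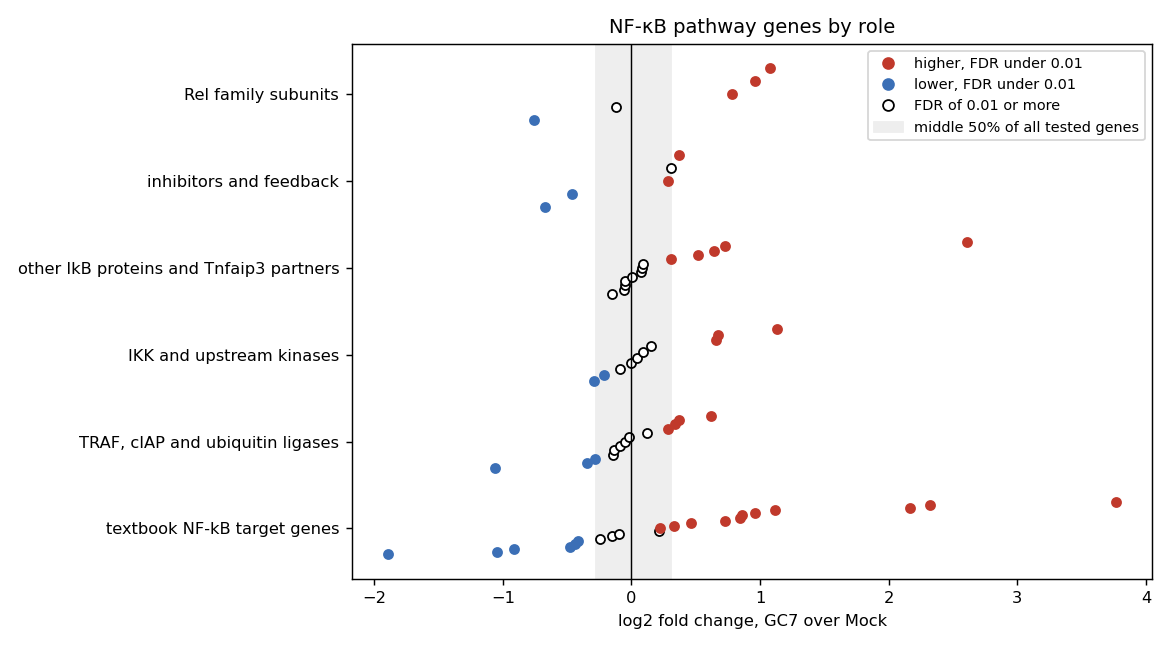
Log2 fold change with GC7 over Mock (x axis) of tested NF-κB genes in 6 roles (y axis), 1 point a gene, filled where the FDR was below 0.01, with the middle 50% of all tested genes (-0.27 to 0.31) in grey. Filled points lie on both sides of 0 in every role but the other IκB proteins, with 5 higher and 0 lower.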

How the data were processed

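Per the labels and the study's methods, the authors trimmed reads with Cutadapt, aligned them with STAR to GRCm38, counted them per Ensembl 96 gene with featureCounts and analysed them with edgeR. The deposited files hold raw counts of 55536 genes for each of 8 libraries. The counting of strand and of multiply mapped reads was not given in the sources used here. From these counts edgeR 4.0.16 gave TMM factors and the quasi-likelihood test over the 11189 genes that exceeded 3 CPM in 4 or more libraries, with group as the only term. Calls were at an FDR under 0.01. The SE of a log2 fold change was its absolute value over the square root of the F statistic. That minimum was 52.6 to 75.9 reads a library. TMM factors were 0.935 to 0.983 in Mock and 1.03 to 1.04 in GC7. Each p-value weighs the difference between the groups against the spread between the 4 libraries a group, with dispersions moderated over all genes tested. Transcript lengths came from GENCODE M21. Alternatives used DESeq2 1.42.0, limma 3.58.1, other scalings and filters, a replicate block and libraries left out. Of other pathway genes, key genes set by symbol and, per list, the 3 with the largest called changes are named, except 1 result not reported here. The genes and lists were chosen with earlier results of these data known.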

Additional observations from a re-analysis of the deposited data

Results flagged for a closer look

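In 74 groups of 4 libraries, 5 had 1 library apart from the other three by Dixon's ratio (gap to the nearest over the range of the group, against its 95% critical value), where chance gives 3.7, or about 1 in 20. Rela was lowest in GC7 replicate 3, with a ratio of 0.975 (58.1 CPM). Nfkbid was lowest in the same library, with a ratio of 0.879 (21.8 CPM). Chuk was lowest in Mock replicate 2, with a ratio of 0.916 (42.5 CPM). Birc3 was lowest in the same Mock library, with a ratio of 0.906 (43.4 CPM). Ccl4 was highest in GC7 replicate 1, with a ratio of 0.905 (21.7 CPM).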

How the results depend on the processing

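Over 16 alternatives, Rel, Relb, Nfkb1, Nfkb2, Nfkbib and Bcl3 kept direction and call, with log2 fold changes of 0.96 to 1.17, 0.91 to 1.06, -0.80 to -0.66, 0.74 to 0.87, -0.51 to -0.32 and -0.76 to -0.58, and Rela stayed uncalled at -0.16 to -0.01. Of the 10 genes, 6 were higher with library totals, 3 to 5 without 1 library at a time, and 3 were lower throughout. Nfkbia passed with library totals (0.40), with no filter (0.30), with the replicate block (0.30) and without Mock replicate 2 and GC7 replicate 3 together (0.25). Nfkbie was lost with no filter (0.28), with the replicate block (0.28) and without those 2 libraries together (0.25), and was 0.23 to 0.31 without 1 library at a time, where Tnfaip3 was 0.31 to 0.43. Other pathway genes lower numbered 13, 7 with library totals and 9 to 14 without 1 library. Library totals moved the median of all genes from 0.02 to 0.11 and the share of calls that were higher from 49.5% to 61.9%. The replicate block left 5 genes higher and 3 lower and lost Ikbkb (-0.21, edgeR FDR 0.0160), as did no filter (edgeR FDR 0.0298). Deviations of same-numbered libraries from their group means had correlations of 0.272, -0.116, 0.202 and -0.183. Their mean was 0.044, against -0.020 for different numbers. With only 4 libraries a group, these values cannot tell whether same-numbered libraries shared a mouse. The main fit did not treat the numbers as pairs, and the replicate block did. Mock and GC7 shares of subunit mRNA without length scaling were 5.27% and 12.9% for Rel, 11.1% and 11.8% for Rela, 3.37% and 7.60% for Relb, 70.5% and 48.2% for Nfkb1 and 9.76% and 19.4% for Nfkb2. Per kb of all annotated exons, chosen after seeing the data, they were 5.36% and 10.99%, 27.5% and 24.4%, 6.57% and 12.4%, 44.4% and 25.3%, and 16.2% and 26.9%. Among uncalled genes, Nfkbiz turned to -0.0055 (RLE factors), -0.0033 (filterByExpr), -0.0049 (DESeq2), -0.0041 (limma-voom), -0.0015 (replicate block), -0.056, -0.044 and -0.10 (without Mock replicate 1, Mock replicate 2 or GC7 replicate 3, in a range of -0.10 to 0.059 without 1 library) and -0.15 (without Mock replicate 2 and GC7 replicate 3). Cyld turned to -0.0056 and Ikbkg to -0.018 without those 2, Ikbkg to -0.016 without Mock replicate 2 (range -0.016 to 0.078), Bcl10 to 0.048 with library totals, and Traf1 to 0.075 with library totals and to 0.022 and 0.017 without Mock replicate 2 or GC7 replicate 2 (range -0.062 to 0.022). The causes were not tested. Depth limits genes near 0 in a group, such as Cd83 in Mock at 0.449 to 1.43 CPM.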
